A study of Solanum tuberosum and Solanum acaule with 12 samples.

Results

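In 16 loci of the autotetraploid potato cultivar Atlantic (Solanum tuberosum), 1 copy number held most of the signal of transcripts placed on a single copy, in every library. A locus is a group of assembled transcripts that share an assembly number, and a copy is the number from 1 to 4 at the end of the chromosome name. These numbers are called chromosome copies after the ploidy of the cultivar, since the deposited placements do not say what they stand for. The loci were selected on measured shares. Transcripts placed on a single one of copies 1 to 4 were summed per locus and copy, and loci with transcripts on all 4 copies and a 4-copy sum of 5 or more in all 6 libraries were taken. Loci in which the same copy held at least 70% of that sum in each library were kept. Of 60683 Atlantic loci, 4058 had transcripts on all 4 copies and 2828 of these reached the minimum sum, so the dominated loci were 16 of 2828. The shares that chose them, and the ratios between copies built from the same values, are given as a description. The rule speaks of single-copy transcripts only: the leading copy held at least 50% of the whole locus signal in 11 of the 16, and 25.6% to 46.1% in the other 5.

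Freezing libraries came from shoot explants in a chamber cooled at 2 °C per hour, starting at 22 °C and ending at -4 °C. Control libraries came from long-day conditions. The word freezing stands for this whole contrast, in which the cooling, the end temperature and the chamber cannot be told apart. Each group held 3 libraries, called biological replicates in the study design, all of the same cultivar, so the 4 copies are those of 1 genotype. RNA from shoot tissue was made into stranded mRNA libraries, and the deposited signal has the form of a length-scaled transcript level (TPM) over a TMM library factor, with totals near 1000000. The table keeps no read counts, so the depth behind each value is unknown and precision rests on the replicates. Library totals ran from 961746 to 1102442. Mean correlations of a library with its own group were 0.932 to 0.950 for freezing and 0.970 to 0.972 for control, given as a description over the tested loci. No identifier could be paired with a gene name, since 0 of 547793 matched the reference gene table, so the loci are given by identifier and position, no role can be stated for them, and the shoot label could not be checked against marker genes.

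An autotetraploid carries 4 homologous versions of each chromosome. In potato, a crop propagated by tubers, these versions are known to differ in many sequence and structural variants, and the alleles of a gene can be transcribed unequally. Reads from near-identical alleles can be hard to assign to one of them, so the level of a copy depends on how shared sequence is handled. Cultivated potato is known as a frost-sensitive crop.

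Among the 2828 loci, dominance by 1 copy was rare and had no gap at the chosen limit. A locus without a single-copy transcript on each of the 4 copies is not among them, so rarity is stated for these loci only. Of the 2828 loci, 1142 had a copy that held at least 30% in all 6 libraries, 284 one that held at least 40%, 92 at least 50% and 37 at least 60%. The count was 16 at 70%, 5 at 80% and 2 at 90%. Just inside the limit, the smallest share over the libraries was 70.9% for AtlantEVm004323, 71.9% for AtlantEVm003679 and 72.0% for AtlantEVm018139. Just outside it lay AtlantEVm021487 at 69.4%, AtlantEVm000515 at 68.7% and AtlantEVm003259 at 68.1%. The largest share of AtlantEVm021487 was 91.2%, above that of several members, so the limit separates loci by their least dominated library.

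**Figure D1:**
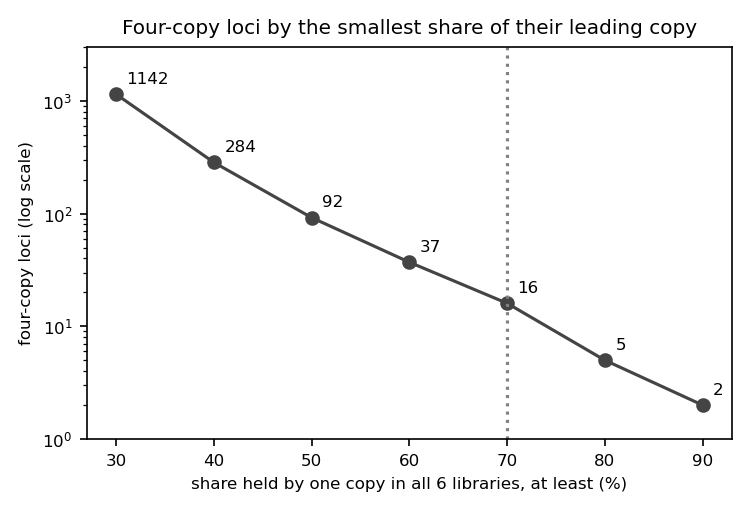
Number of 4-copy loci (vertical axis, log scale) whose leading copy holds at least the share on the horizontal axis (percent) in all 6 libraries; the dotted line marks the limit of 70%. The count drops from 1142 at 30% to 16 at 70% and 2 at 90%, with no step at the limit.

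The most one-sided locus among those placed wholly on single copies was AtlantEVm007216 on chromosome 9. It has 4 assembled transcripts, one on each copy. The transcript on copy 4, at 5339605 to 5345672 and overlapping 2 gene models, had a signal of 26.9, 34.3 and 25.0 after freezing, against 30.7, 26.9 and 25.4 in control. Those groups overlap. Its counterparts on copies 1, 2 and 3, at 1500961 to 1504752, 7302429 to 7306248 and 5671152 to 5675052, stayed between 0.063 and 0.423 in every library. Copy 4 thus held between 96.7% and 98.2% of the 4-copy sum. Its mean over the libraries was 39.1 times the mean of the other 3 copies together.

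AtlantEVm017386 on chromosome 3 had the highest ratio of means. The mean of its leading copy was 44.4 times the mean of the other 3 copies together. Its leading copy 3, at 754249 to 779141, held between 96.3% and 99.1% of the sum. Signal on that copy was 31.5, 97.5 and 47.8 after freezing, against 563, 348 and 464 in control. Every freezing library lay below every control library. Copy 4, at 698794 to 728734, had 0.272, 1.44 and 1.18 after freezing, against 19.4, 3.32 and 6.92 in control, and these groups do not overlap either. The only single-copy transcript of copy 1 was listed at 0 in all 6 libraries, and copy 2 exceeded 0 only in control replicates 1 and 3, at 2.12 and 0.361. Some transcripts of this locus had the same start and end on copies 1 and 2 and therefore counted for neither. One of them, at 528485 to 548971 on both, had 0, 0.203 and 0.067 after freezing, against 15.5, 3.88 and 14.9 in control.

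AtlantEVm004248 on chromosome 5 was the other locus with a mean share above 90%, led by copy 4 at 3223743 to 3410917. That copy had a signal of 10.4, 9.72 and 13.5 after freezing, against 18.02, 14.9 and 19.8 in control. All freezing values were below all control values. The other 3 copies together had 0.913, 0.159 and 2.12 after freezing, against 0.633, 0.522 and 0.736 in control, with overlap. Its transcripts placed on several copies, on copy 0 or on a scaffold ran the other way, at 13.1, 10.9 and 11.8 after freezing and 8.95, 9.89 and 7.76 in control. Summed over all transcripts, the locus had 24.4, 20.8 and 27.4 after freezing and 27.6, 25.4 and 28.2 in control, which overlap.

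Among the most abundant members, AtlantEVm014470 on chromosome 1 was led by copy 2 at 2320110 to 2383071. The copy had a signal of 149, 455 and 417 after freezing, against 270, 698 and 494 in control. The groups overlap, and freezing replicate 1 and control replicate 1 were the lowest of their groups. A transcript whose placement spanned 922 bases, at 2321406 to 2322327, held 78.9% of that copy. Copy 3 had 29.3, 57.1 and 66.3 after freezing, against 56.0, 86.6 and 84.2 in control, which overlap. Copy 1 was at 13.1 to 19.8 after freezing and 24.0 to 36.1 in control, without overlap. So 2 of its other copies were themselves abundant, while the single transcript of copy 4 was listed at 0 in all 6 libraries.

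AtlantEVm025523 on chromosome 6 was led by copy 3 at 37537815 to 37696535. Copy 3 had 129, 150 and 131 after freezing, against 160, 133 and 134 in control, which overlap. Copies 1 and 4 were at 10.8 to 15.9 and 7.47 to 13.8 over the 6 libraries, and copy 2 was above 0 only in freezing replicate 2, at 0.111. The share of copy 3 ranged over 3.71 percentage points, between 83.9% and 87.6%.

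AtlantEVm003679 was led by copy 1 of chromosome 8 at 15167209 to 15171770, with 69.2, 34.0 and 56.3 after freezing, against 71.1, 64.2 and 56.5 in control. Freezing replicate 2 was the lowest value and the groups overlap. Copy 3, at 16095719 to 16100170, was the other expressed one, with 22.9, 11.5 and 19.2 after freezing, against 27.1, 24.7 and 20.8 in control. Copy 4 was listed at 0 in all 6 libraries, and the transcript counted for copy 2 lay on chromosome 9 at 24075613 to 24076187. For this locus the comparison is thus mainly between copies 1 and 3, at nearly fixed proportions: the share of copy 1 was 74.9%, 74.0% and 74.3% after freezing, against 72.2%, 71.9% and 72.3% in control.

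A pair of members had high values in freezing replicates 1 and 3 only. AtlantEVm003998, led by copy 1 of chromosome 2 at 37981049 to 38072806, had 141, 21.4 and 122 on that copy after freezing, against 11.1, 31.6 and 7.87 in control. AtlantEVm021252, led by copy 1 of chromosome 3 at 21996311 to 22023250, had 64.4, 21.7 and 65.7 after freezing, against 26.6, 27.3 and 23.6 in control. In both loci freezing replicate 2 lay within or below the control values, so the groups overlap. Copy 2 was also highest in freezing replicates 1 and 3 in each. It was at 33.3, 1.59 and 7.13 after freezing, against 2.34, 5.36 and 1.16 in control, in AtlantEVm003998. For AtlantEVm021252 it was at 16.7, 6.42 and 17.2 after freezing, against 5.39, 7.90 and 6.14 in control.

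AtlantEVm005674 and AtlantEVm004323 were of middle abundance. Copy 4 of AtlantEVm005674 had 37.7, 28.8 and 37.7 after freezing, against 25.0, 26.6 and 23.0 in control, with every freezing value above every control value. In AtlantEVm004323, copy 1 of chromosome 5 at 7151087 to 7451556 had 11.4, 12.7 and 13.3 after freezing, against 24.4, 27.2 and 28.4 in control. All freezing values were below all control values, and copy 2 did not overlap either, at 3.69, 3.82 and 4.24 after freezing, against 5.18, 6.10 and 6.13 in control. Its copies 3 and 4 stayed under 1 in all libraries by their single-copy transcripts, while a transcript placed on both of them and on a scaffold had 12.8, 14.2 and 18.2 after freezing, against 22.9, 24.4 and 27.2 in control.

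The remaining 6 members had leading copies whose freezing and control values overlapped, with 1 exception. Copy 1 of AtlantEVm007498 had 7.75, 8.19 and 9.11 after freezing, against 7.09, 6.44 and 6.46 in control, without overlap. AtlantEVm002845 (copy 4) averaged 15.2 ± 2.26 after freezing and 14.0 ± 0.843 in control, and AtlantEVm003948 (copy 2) averaged 16.6 ± 6.04 after freezing and 18.4 ± 1.72 in control (SD, n = 3 each). AtlantEVm009494 (copy 1) averaged 24.4 ± 9.83 after freezing and 19.9 ± 1.25 in control (SD, n = 3 each). The freezing SD is the larger one in these 3 loci. AtlantEVm018139 (copy 1) averaged 12.1 ± 3.90 after freezing and 11.3 ± 1.98 in control (SD, n = 3 each). The least abundant was AtlantEVm006082 (copy 1), with 6.27 ± 1.02 after freezing and 5.62 ± 1.27 in control (SD, n = 3 each).

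**Figure D2:**
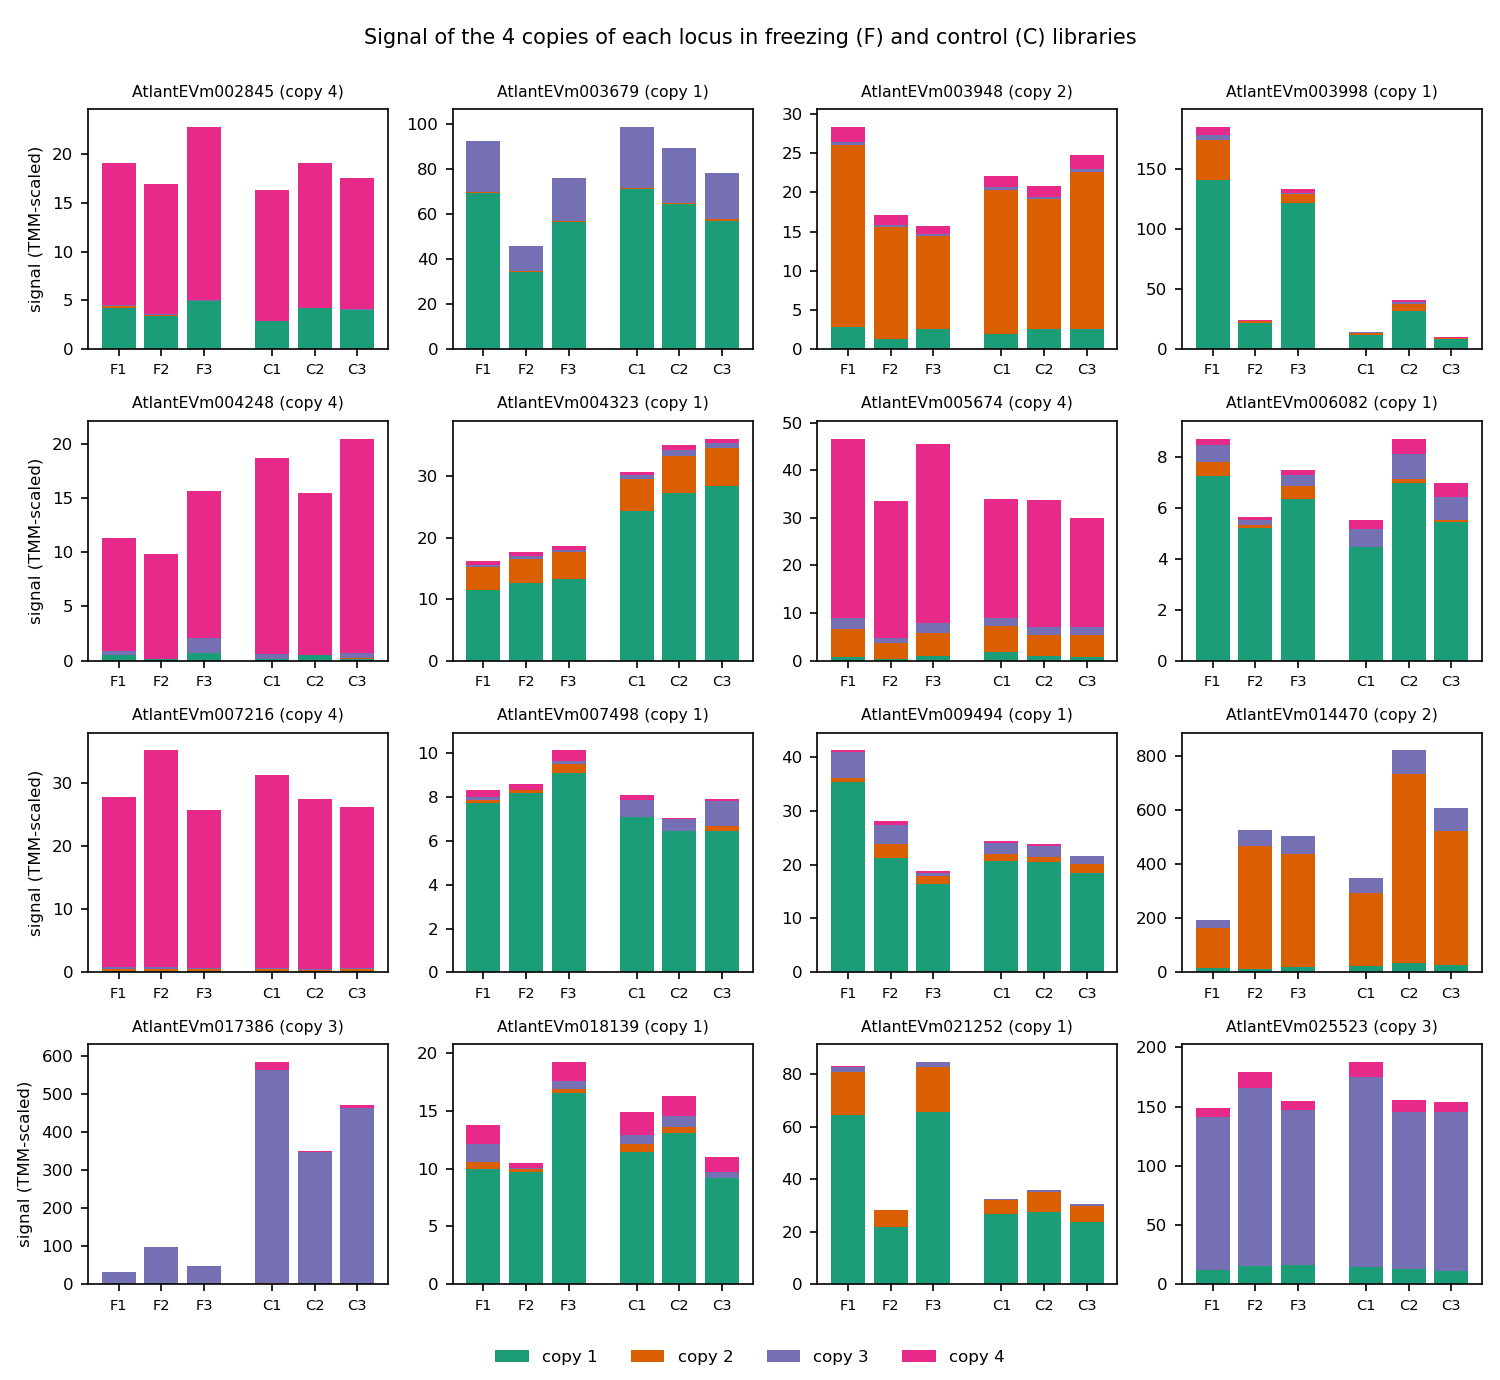
Signal (TMM-scaled, linear axis from 0) of copies 1 to 4, stacked, in the 3 freezing libraries (F1 to F3, left) and the 3 control libraries (C1 to C3, right) of each of the 16 loci; the leading copy is named above each panel. One colour fills at least 70% of every bar, and AtlantEVm003998 and AtlantEVm021252 are high in F1 and F3 but not in F2.

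Not all other copies were near 0, by their single-copy transcripts. Of the 48 other copies of the 16 loci, 3 were listed at 0 in all libraries, 23 were under 1 in all libraries and 6 were at 5 or more in all libraries. In 2 loci, AtlantEVm006082 and AtlantEVm007216, all 3 other copies stayed under 1. In 5 loci this held for 2 other copies, in 7 for 1 and in 2 for none. The highest means of the other 3 copies together were 85.9 in AtlantEVm014470, 23.4 in AtlantEVm025523, 21.5 in AtlantEVm003679 and 11.9 in AtlantEVm003998. Each of these sums exceeded the mean leading copy of AtlantEVm006082, at 5.95.

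How far the share ranged differed among the members. It ranged over more than 15 percentage points across the 6 libraries in 2 loci, AtlantEVm018139 and AtlantEVm003998, and over less than 5 points in 4. A range in points is bounded near 100%, so small ranges there do not show a steady ratio. As leading copy over the other 3 copies, AtlantEVm017386 ran from 26.2 to 116 and AtlantEVm007216 from 29.3 to 54.0 over the libraries, while AtlantEVm003679 ran from 2.56 to 2.98. By that measure AtlantEVm003679 varied least among the 16 (1.16 times between its lowest and highest library) and AtlantEVm004248 most (9.57 times). For AtlantEVm018139 the share was 72.0%, 92.8% and 86.3% after freezing, against 77.2%, 80.2% and 83.0% in control, and for AtlantEVm003998 it was 76.2%, 90.2% and 91.6% after freezing, against 79.2%, 77.3% and 80.7% in control. In both, the freezing libraries spread around or above the control libraries and the groups overlap. The median share over the 16 loci was 81.6%, 86.2% and 84.8% in the freezing libraries, against 82.1%, 80.2% and 81.4% in the control libraries.

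**Figure D3:**
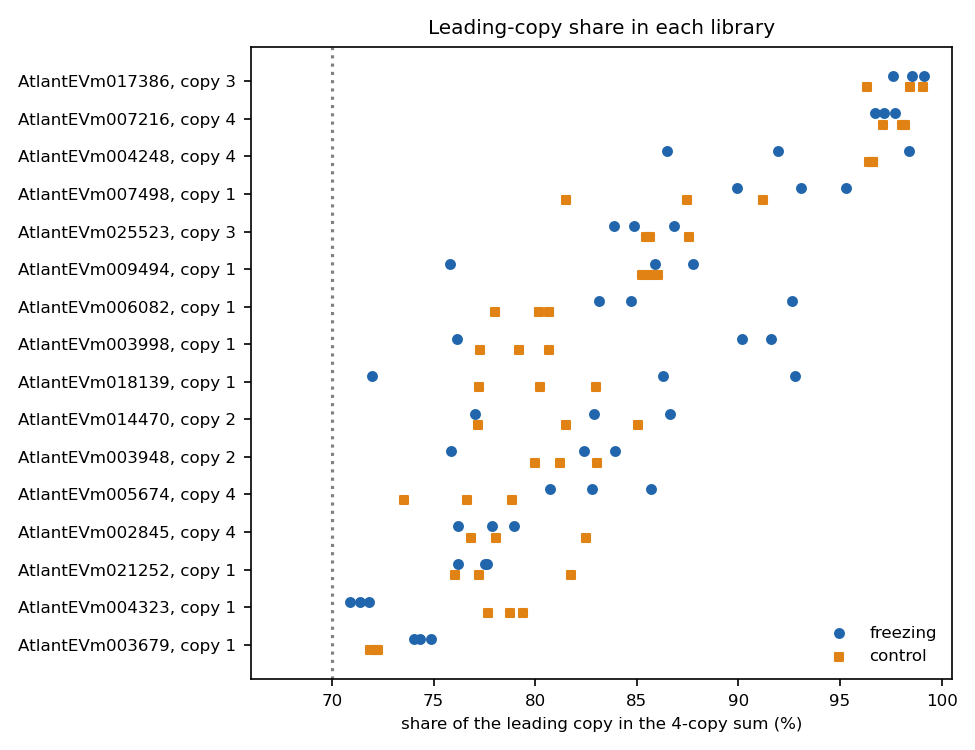
Share of the leading copy in the 4-copy sum (percent; the axis does not start at 0) for each of the 16 loci in the 3 freezing libraries (circles) and 3 control libraries (squares), with the limit of 70% dotted. All points lie right of the limit by the choice of the loci, and AtlantEVm004323 shows all freezing points left of all control points.

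The leading copy was copy 1 in 8 of the 16 loci, copy 2 in 2, copy 3 in 2 and copy 4 in 4. Among the other 2812 loci with 4 copies, copy 1 had the highest mean share in 713, copy 2 in 680, copy 3 in 699 and copy 4 in 720. With 16 loci these counts are a description and no order among the copies was tested. The same copy was also highest in all 6 libraries in 1246 of the 2812 others (44.3%), so a constant leader was common while a large share was not. The median 4-copy sum was 27.6 for the members and 25.5 for the others.

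The assembly and placement of transcripts are set side by side for members and other loci, with no test. Members had a median of 19 assembled transcripts per locus, against 12 in the others. The leading copy carried more single-copy transcripts than each other copy in 12 of 16 members (75.0%), against 599 of 2812 others (21.3%). One transcript held at least 50% of the leading copy in 13 of 16 members and in 2428 of 2812 others. Since transcripts placed on a copy give that copy its signal, the number of transcripts is not independent of the share that chose the loci.

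Transcripts that fit several places are left out of the shares, and for some members they held much of the locus. In 7 of the 16 (43.75%), less than 90% of the whole locus signal lay on transcripts of a single copy, against 159 of 2812 others (5.65%). All transcripts were on single copies in 7 members, AtlantEVm003679, AtlantEVm003948, AtlantEVm003998, AtlantEVm006082, AtlantEVm007216, AtlantEVm018139 and AtlantEVm021252. In 3 members the single-copy transcripts held under 50% of the locus, at 28.5% in AtlantEVm007498, 37.7% in AtlantEVm004323 and 46.8% in AtlantEVm025523. With the signal of such transcripts divided evenly over the copies they were placed on, 11 of the 16 still met the rule, among 36 loci of 5197 that then did. The division could not change the 7 members with all transcripts on single copies, and it left the shares of AtlantEVm014470 and AtlantEVm009494 as they were. Only AtlantEVm005674 and AtlantEVm017386 had shares that the division changed and still met the rule. The 5 members that did not meet it were AtlantEVm002845, AtlantEVm004248, AtlantEVm004323, AtlantEVm007498 and AtlantEVm025523. In AtlantEVm007498 another copy led after the division, copy 2, with 43.9% to 55.0% of the sum. In AtlantEVm004323 copy 1 then held only 35.0% to 43.8%. Statements on these 5 loci therefore hold for single-copy transcripts only.

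**Figure D4:**
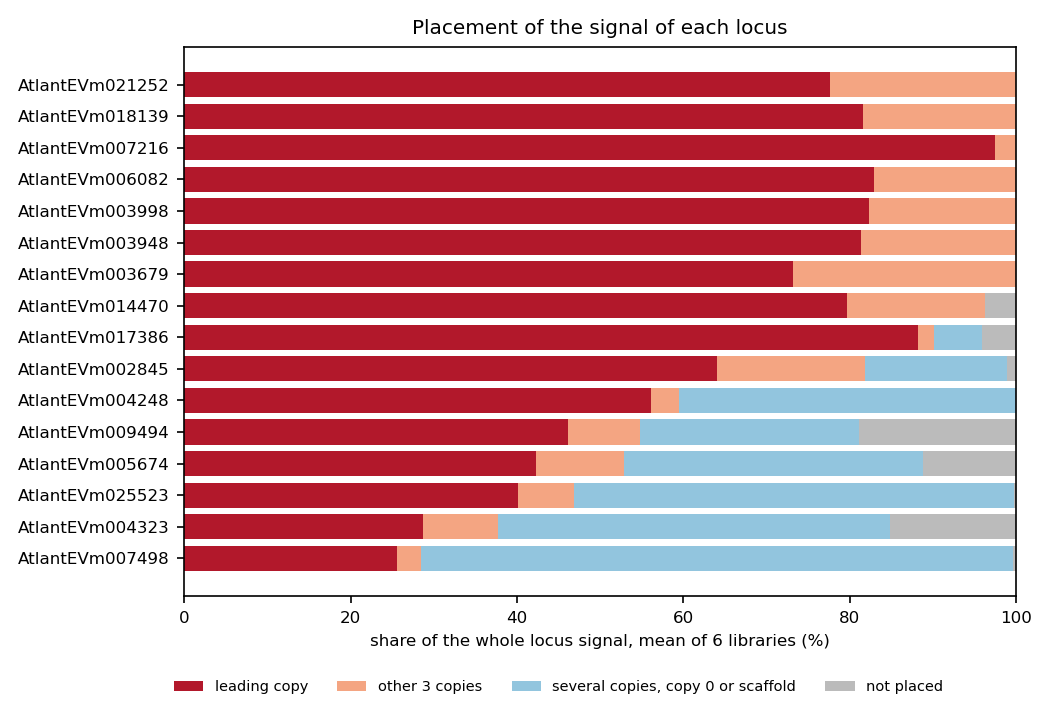
Share of the whole signal of each of the 16 loci (percent, mean of 6 libraries) on the leading copy, on the other 3 copies, on transcripts with several places, copy 0 or a scaffold, and on transcripts without a place. In 7 loci the bar holds only the 2 single-copy classes, while in AtlantEVm007498 the leading copy is 25.6% of the locus.

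Not all members had their 4 copies on 1 chromosome number. In 12 of the 16 all single-copy transcripts lay on 1 chromosome number, and in 4 (25.0%) on several, against 198 of 2812 others (7.04%). AtlantEVm002845 had copies 1 and 4 on chromosome 4, at 12028424 to 12042917 and 10288164 to 10302687, while the only single-copy transcripts of copies 2 and 3 lay on chromosome 2, at no more than 0.169. Further transcripts of this locus lay on copies 2 and 3 of chromosome 4 together and so counted for neither. The strongest of them, at 9075588 to 9095237 on copy 2 and 12952825 to 12972474 on copy 3, had 2.93, 2.70 and 2.70 after freezing, against 2.15, 3.06 and 2.49 in control. AtlantEVm005674 and AtlantEVm007498 each spread over 7 chromosomes. The strongest transcript of AtlantEVm005674 lay on copy 4 of chromosome 1 at 48004276 to 48007332, with 13.8, 12.8 and 15.2 after freezing, against 7.28, 8.38 and 8.03 in control. For AtlantEVm007498 it lay on copy 1 of chromosome 1 at 52194445 to 52203236, with 4.71, 4.46 and 3.75 after freezing, against 3.27, 3.35 and 3.27 in control. In both cases the groups of that transcript do not overlap. Copy 4 of AtlantEVm005674 and copy 1 of AtlantEVm007498 are themselves sums over several chromosomes. For this pair of loci the compared values belong to different genomic places that share an assembly number. The label of 4 copies of 1 locus does not hold for them. Nor does it hold in full for AtlantEVm002845, with copies 2 and 3 counted on chromosome 2, or for AtlantEVm003679, with copy 2 counted on chromosome 9.

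Among the 2626 loci on 1 chromosome number, in order of their start on copy 1, 1 pair of the 12 members stood next to each other. These were AtlantEVm004248 and AtlantEVm004323 on chromosome 5, led by copies 4 and 1. They are neighbours in that list only. On copy 1 their single-copy transcripts lay far apart, at 3165754 to 3170786 and at 7151087 to 7451556. No neighbouring members were led by the same copy. Chromosomes 2, 3, 4, 5 and 6 held 2 of the 12 each, and chromosomes 1 and 9 held 1 each.

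The effect of freezing on the whole locus was read from a limma fit over all 27034 Atlantic loci tested, on log2(signal + 1), where all 16 members were tested. Of all loci, 4.54% were called higher and 8.54% lower after freezing at an adjusted p under 0.05. Of the 2828 loci with 4 copies, 4.28% were called higher and 3.32% lower. Among the members 0 were called higher and 2 lower, AtlantEVm017386 and AtlantEVm004323, and 4 of 16 had an unadjusted limma p under 0.05, as had 8063 of all 27034 loci and 681 of the 2828. With 2 calls, no difference from those backgrounds was tested. The median log2 fold change was 0.03 over the members, -0.02 over all loci tested and 0.06 over the 2828 loci with 4 copies. Fold changes on this scale understate the change of low loci. In bulk tissue, fewer cells of a type and less RNA per cell cannot be told apart.

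AtlantEVm017386 summed over all its transcripts to 32.8, 110.0 and 53.6 after freezing, against 666, 373 and 524 in control. The groups do not overlap, and the locus fell, by a log2 change of -3.11 (SE 0.45; adjusted p = 0.0114, limma). Of the libraries left out in turn, control replicate 1 ended the call (adjusted p = 0.0552 in limma, and 0.00128 to 0.0552 over the settings tried). AtlantEVm004323 summed to 42.3, 51.7 and 53.4 after freezing, against 80.8, 86.5 and 94.8 in control, again without overlap. It fell, by a log2 change of -0.82 (SE 0.15; adjusted p = 0.0197, limma), a call lost without freezing replicate 3 (adjusted p = 0.0503 in limma) and without any one of control replicates 1 to 3 (adjusted p = 0.0697, 0.0768 and 0.0787 in limma, and 0.0051 to 0.0787 over the settings tried).

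The single copies were read from a second limma fit over 38454 locus copies of Atlantic, of which 3.42% were called higher and 4.23% lower after freezing. All 16 leading copies were tested, and 0 were called higher and 2 lower, copy 3 of AtlantEVm017386 and copy 1 of AtlantEVm004323. Their log2 fold changes were -3.06 (SE 0.42; adjusted p = 0.0132, limma) and -1.04 (SE 0.14; adjusted p = 0.0132, limma). For AtlantEVm017386 the call ended on leaving out control replicate 1 or 3 (adjusted p = 0.0675 and 0.0551 in limma, and 0.00101 to 0.0675 over the settings tried). For AtlantEVm004323 it ended on leaving out any one of the control replicates (adjusted p = 0.0606 to 0.0642 in limma, and 0.00271 to 0.0642 over the settings tried). The median log2 fold change of the leading copies was 0.06, against 0.02 over all locus copies tested and 0.06 over the tested copies of the 2828 loci.

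Only 18 of the 48 other copies were at 1 or more in at least 3 libraries and could be tested, and 0 of them were called by limma. An unadjusted limma p under 0.05 was found for 3 of the 18, and for 10075 of all 38454 locus copies. The nearest was copy 4 of AtlantEVm017386, with a log2 fold change of -2.23 (SE 0.55; adjusted p = 0.0576, limma). Copy 1 of AtlantEVm014470 had -0.84 (SE 0.22; adjusted p = 0.0641, limma), and copy 2 of AtlantEVm004323 had -0.47 (SE 0.13; adjusted p = 0.0841, limma). These 3 values have the sign of the leading copy of the same locus, and a call in 1 copy and not in another does not show that the copies differ.

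Leading copies that did not overlap between the groups numbered 2 higher after freezing, AtlantEVm005674 and AtlantEVm007498, and 3 lower, AtlantEVm004248, AtlantEVm004323 and AtlantEVm017386. Over all locus copies tested, 32.4% did not overlap in either direction, so 5 of 16 is near the background. With an exact permutation test of 3 against 3 libraries the smallest two-sided p is 0.1. Copy 4 of AtlantEVm004248 had a log2 fold change of -0.61 (SE 0.18; adjusted p = 0.0904, limma) and did not pass. Copy 4 of AtlantEVm005674 had 0.46 (SE 0.17; adjusted p = 0.142, limma), and copy 1 of AtlantEVm007498 had 0.29 (SE 0.13; adjusted p = 0.227, limma).

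In a pair of loci the value moved most on leaving out freezing replicate 2. The leading copy of AtlantEVm003998 had a log2 fold change of 2.27 (SE 0.79; adjusted p = 0.130, limma), and 3.12 without that library (adjusted p = 0.0261 in limma, and 0.0107 to 0.316 over the settings tried). For AtlantEVm021252 it was 0.79 (SE 0.41; adjusted p = 0.284, limma), and 1.30 without that library (adjusted p = 0.0115 in limma, and 0.0115 to 0.575 over the settings tried). Other libraries moved these values too. Leaving out each library in turn gave 1.79 to 3.12 for AtlantEVm003998, with 2.82 without control replicate 2, and 0.52 to 1.30 for AtlantEVm021252. With all 6 libraries weighted equally neither copy passed. With array weights, which keep all 6 but weight them unequally, both were called (2.88 with adjusted p = 0.0107, and 1.20 with adjusted p = 0.0129, limma). Calls rose over all 38454 locus copies too, from 2943 with equal weights to 11452 with array weights and 4338 without freezing replicate 2. Why freezing replicate 2 differed was not tested.

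**Figure D5:**
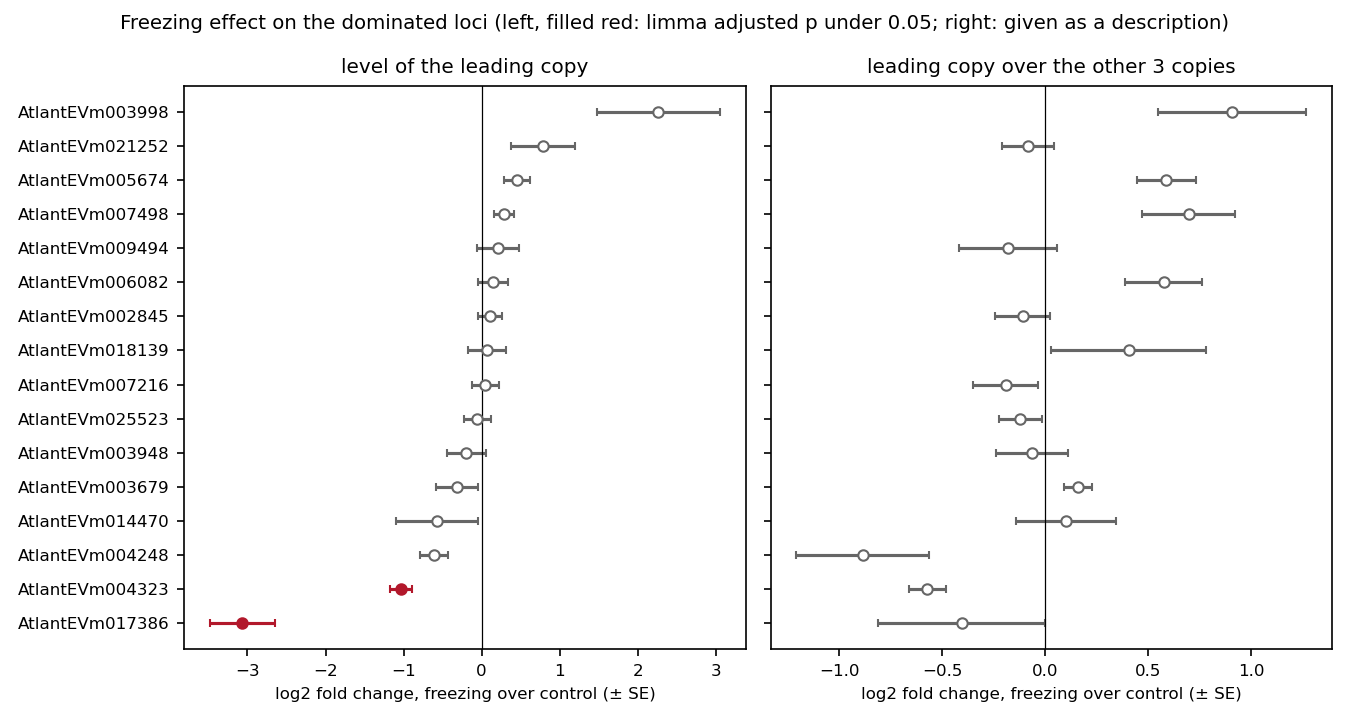
Log2 fold change of freezing over control, with its SE, for the level of the leading copy (left) and for the leading copy over the other 3 copies together (right, a description) in each of the 16 loci; filled red points on the left have a limma adjusted p under 0.05. AtlantEVm017386 and AtlantEVm004323 are filled, at -3.06 and -1.04.

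The balance between copies was taken as the log2 ratio of the leading copy to the other 3 copies together, each plus 0.5, and fitted with limma over the 2828 loci. For the members this ratio is built from the shares that chose them, and a shift below 70% in any library would have removed a locus from the set. Their ratios are therefore given as a description, without p-values. Of the 2828 loci, 3.61% were called, and of the 16 members 1, from which nothing is read here. The median log2 difference of the ratio, freezing minus control, was -0.07 over the members and 0.01 over all 2828 loci. Shares did not overlap between groups in 4 members, near the background of 26.0% of the 2828 loci. They were higher after freezing in AtlantEVm003679, AtlantEVm005674 and AtlantEVm006082 and lower in AtlantEVm004323.

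In AtlantEVm004323 the leading copy held 70.9%, 71.8% and 71.4% of the sum after freezing, against 79.4%, 77.7% and 78.7% in control. The freezing libraries were all lower, and all lay close to the limit that defines the members. The share averaged 71.4% ± 0.473 after freezing and 78.6% ± 0.885 in control (SD, n = 3 each), a log2 ratio difference of -0.57 (SE 0.09). The strongest transcript of the leading copy, at 7221581 to 7297756 and overlapping 4 gene models, had 3.29, 4.24 and 2.76 after freezing, against 12.1, 11.7 and 14.7 in control. It held 41.5% of the leading copy on average. Transcripts with several places held 47.1% of this locus, with 21.8, 23.4 and 28.5 after freezing, against 36.8, 38.7 and 43.7 in control. They too were lower in every freezing library, and their assignment to a copy is not known.

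AtlantEVm005674 had a share of 80.7%, 85.7% and 82.8% after freezing, against 73.6%, 78.9% and 76.6% in control, a log2 ratio difference of 0.59 (SE 0.14). AtlantEVm006082 had a share of 83.2%, 92.7% and 84.7% after freezing, against 80.7%, 80.2% and 78.0% in control, a difference of 0.58 (SE 0.19). The freezing values lie above the control values in both, with freezing replicate 2 the highest. The log2 ratio difference was 0.70 in AtlantEVm007498 (SE 0.23) and 0.16 in AtlantEVm003679 (SE 0.07).

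In AtlantEVm003998 the log2 ratio difference was 0.91 (SE 0.36), and 0.55 to 1.41 with 1 library left out. That of AtlantEVm004248 was -0.89 (SE 0.32), and -1.31 to -0.54 with 1 library left out. AtlantEVm017386, whose level fell most among the members, had a share of 98.4% ± 0.787 after freezing and 97.9% ± 1.44 in control (SD, n = 3 each). Its log2 ratio difference was -0.40 (SE 0.40), so the mean share and the fitted ratio differ in sign. With a pseudocount of 0.1 in place of 0.5 the difference was 0.09.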

How the data were processed

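The authors deposited one table for Atlantic with a signal value per assembled transcript and library, not counts. Library totals with a geometric mean of 1000000 point to TPM over a TMM factor; this reading comes from the values. A second deposited table, with no header, gives each transcript gene models, a chromosome with a copy number, and start and end; for build, aligner and assembler, no name is given in the sources used here. The submitters' processing notes name Trimmomatic 0.39 and DESeq2, without a role. Placements covered 88.9% of 252591 transcripts; 161846 were on a single copy, and 0 value columns were unused.

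Signal was summed per locus and copy with pandas 2.3.3. Freezing and control (3 libraries each) were compared with limma 3.58.1 in R 4.3.3 (trend, two-sided, Benjamini-Hochberg at 0.05): on log2(signal + 1) for loci and for locus copies at 1 or more in at least 3 libraries, and on the copy ratio. The fits were tested on simulated data. Replicates are called biological, and a p-value covers only the spread among these libraries. Replicate numbers were not used as pairs (same-number correlations of 0.08, -0.23 and 0.05). Members and tests were chosen with earlier results of these data known. Loci were named if among the 8 most abundant members, called by a fit, nearest the limit, or with the highest other copies; as there are 16, all are named. Scaffold placements count as another place. No sequence of the loci was used here. S. acaule was not analysed here.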

Additional observations from a re-analysis of the deposited data

How the results depend on the processing

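The 16 dominated loci became 37 at a limit of 60%, 5 at 80%, 7 with a 4-copy sum of 20 or more and 36 with shared transcripts divided evenly, and numbered 16 to 18 on leaving out a library. Ignoring scaffold placements, an alternative chosen after seeing the data, gave 17, the 16 among them. The 3535 called loci became 1052 with the replicate block, 9346 with array weights, 824 at 5 or more in all libraries and 1813 from single-copy transcripts (575 to 4334 on leaving out a library). Members called by locus level, 2 at first, became 6 with array weights and 0 with the replicate block (limma; 3 with an unadjusted p under 0.05) (0 to 4 with a library left out). The 2943 called locus copies became 594, 11452 and 718 with the block, the weights and the stricter filter (280 to 4338 with a library left out). Leading copies called, 2 at first, became 0 with the block (limma; 3 with an unadjusted p under 0.05) and 6 with the weights (0 to 4 with a library left out). The 102 called ratios of 2828 became 68 of 2828 with the replicate block and 36 of 1285 with a sum of 20 or more (18 to 91 with a library left out). Members called by ratio, 1 at first, numbered 2 with the block and 0 of 7 tested with a sum of 20 or more (0 to 3 with a library left out). Nothing is read from these member counts, as the rule uses the same shares. The block took the adjusted p of AtlantEVm017386 to 0.0501 (locus) and 0.0542 (copy) and of AtlantEVm004323 to 0.0580 and 0.0567 in limma. No same-numbered control correlated best with its own freezing library, so no effect shared by a replicate number was visible. With so few libraries this cannot exclude that the numbers pair the samples. Uncalled values that turned sign were the leading copy of AtlantEVm007216 with libraries scaled to 1000000 (-0.016) and with array weights (-0.0921), the leading copy of AtlantEVm009494 with the weights (-0.11) and the ratio of AtlantEVm017386 with a pseudocount of 0.1 (0.0906). On leaving out 1 library, the leading copy change went from -3.38e-05 to 0.19 in AtlantEVm002845, -0.0846 to 0.136 in AtlantEVm007216, -0.0826 to 0.446 in AtlantEVm009494, -0.16 to 0.19 in AtlantEVm018139 and -0.125 to 0.0297 in AtlantEVm025523. The ratio ran from -0.198 to 0.0215 in AtlantEVm002845, -0.19 to 0.14 in AtlantEVm003948, -0.37 to 0.14 in AtlantEVm009494, -0.13 to 0.35 in AtlantEVm014470, -0.91 to 0.0033 in AtlantEVm017386 and -0.172 to 0.0588 in AtlantEVm021252. The causes were not tested. Depth is unknown and limits every low copy.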

Other observations

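Transcripts with several places carried most of the signal of some members. In AtlantEVm025523 a transcript on copy 1 of chromosome 6 at 18050103 to 18052204 and on copy 3 at 37694434 to 37696535 had 130, 127 and 117 after freezing, against 150, 123 and 119 in control. Its values are of the size of the whole leading copy 3, and the groups overlap. In AtlantEVm007498 a transcript at a pair of places on copy 0 of chromosome 1 and at 68726809 to 68737275 on copy 2 had 17.99, 13.9 and 17.3 after freezing, against 11.0, 10.02 and 12.6 in control. It was higher in every freezing library, as was the whole locus, with 33.7, 31.7 and 35.0 after freezing, against 25.4, 23.7 and 26.7 in control (log2 change 0.39, SE 0.12; adjusted p = 0.0884, limma).

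The strongest transcripts of a locus could differ in extent between copies. In AtlantEVm018139 the strongest one of leading copy 1 spanned 61829 bases of chromosome 4, at 6967940 to 7029768, over 3 gene models, and those of copies 2, 3 and 4 spanned 5228, 5246 and 4332 bases over 1 gene model each. In AtlantEVm003998 the strongest one of leading copy 1 spanned 863 bases, at 37981049 to 37981911, and had 86.6, 13.2 and 78.7 after freezing, against 6.80, 21.5 and 3.08 in control. Those of its copies 2, 3 and 4 spanned 5182, 1365 and 4324 bases. Over the 16 members, the strongest transcript had its shortest span on the leading copy in 6 and its longest there in 7.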
